A study of Bos taurus with 24 samples.

Results

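High mobility group (HMG) proteins are small, abundant chromatin proteins, and 7 of their genes were looked up by symbol in an expression table of single bovine oocytes: HMGB1, HMGB2, HMGB3, HMGA1, HMGN1, HMGN2 and HMGN3. Of these 7 genes, 4 had a row among the 17071 rows of the table. HMGB1, HMGN1 and HMGN2 matched no symbol and were not analysed here. They may be among the 3276 rows that carry an ID alone, which could not be named. The table was made from 24 metaphase II oocytes of Bos taurus, each sequenced alone by CEL-seq2. The siRNA injected group held 12 oocytes that received a scrambled, non-specific siRNA together with fluorescent dextran at the germinal vesicle stage, and the non-injected group held 12 wild type oocytes. Both groups were cultured with roscovitine, an inhibitor of cyclin-dependent kinases, for 16 h and then in maturation medium for 22 h. The oocytes came from slaughterhouse ovaries, and the sources used here do not say which of them shared an animal, so p-values refer to the spread among these oocytes. Needle, dextran and siRNA came together in every injected oocyte, and their parts in a difference cannot be told apart.

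HMGB proteins carry HMG boxes, which fit into the minor groove of DNA and bend it, and they help other factors to reach their sites. HMGA proteins bind AT-rich DNA through short AT hooks. HMGN proteins bind the nucleosome core itself, and in somatic cells members of all these families compete with linker histone H1 for chromatin. A mature oocyte makes almost no new RNA, so its mRNAs are largely a store laid down during growth that is used during maturation and after fertilisation.

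In CEL-seq2, cDNA synthesis starts at the poly(A) tail and tags each molecule with a unique molecular identifier (UMI), so a molecule is counted once whatever its length, and levels of different genes can be set side by side without division by length. Values are in RPM, each gene's share of the poly(A)-primed RNA of an oocyte. They can reflect the state of the tail as well as the amount of mRNA, and these were not told apart. Injected oocytes held 204285 to 382077 UMIs and non-injected oocytes 134080 to 415554 UMIs, and 1 UMI was worth 2.27 to 7.35 RPM. The fewest UMIs were in non-injected oocyte 11. All 11 listed oocyte markers with a row were above 0 in all 24 oocytes, at a median of 518 RPM over the genes. The 12 listed cumulus and granulosa markers with a row had a median of 3.05 RPM over the genes and summed to 143 to 282 RPM in injected and 151 to 225 RPM in non-injected oocytes. None of them was at 0 in every oocyte. FSHR, GREM1 and CYP11A1 were each above 0 in 1 of 24 oocytes, whereas HAS2 (86.4 RPM), INHBA (39.9 RPM) and GJA1 (31.5 RPM) were above 0 in all 24. Both ranges of the sum overlapped, and the part of these markers in the results below was not tested.

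All 4 measured HMG genes were above 0 RPM in 24 of 24 oocytes. HMGB2, HMGA1 and HMGB3 were among the genes of higher RPM, and HMGN3 lay in the middle of the range. By mean level over 24 oocytes, HMGB2 (508 RPM) ranked 334 among the 7256 genes that averaged 10 RPM or more. HMGA1 (442 RPM) ranked 402, HMGB3 (285 RPM) ranked 744 and HMGN3 (48.2 RPM) ranked 3573. Mammalian HMG genes have many processed pseudogenes, and reads of near-identical copies could be split or shared in the authors' counting, so these levels are uncertain to that extent.

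The order HMGB2, HMGA1, HMGB3, HMGN3 was the same in both groups, but the first neighbours in it did not differ beyond their spread. Neighbours are said to do so where the mean log2 ratio within the oocyte reaches its SD. This rule describes single oocytes, and a difference in mean level was not tested. HMGB2 exceeded HMGA1 in 15 of 24 oocytes, with a log2 ratio within the oocyte of 0.22 ± 0.42 (SD, n = 24). HMGB2 was the highest of the 4 genes in 9 of 12 injected and 5 of 12 non-injected oocytes, and HMGA1 was the highest in 3 of 12 injected and 6 of 12 non-injected oocytes. HMGB2 was chosen for being higher in these injected oocytes. This contrast of the groups follows in part from that choice and was not tested. HMGA1 exceeded HMGB3 in 21 of 24 oocytes (log2 ratio 0.67 ± 0.65, SD, n = 24). In the non-injected group alone this step was smaller than its spread (0.62 ± 0.75, SD, n = 12), while in the injected group it was not (0.72 ± 0.55, SD, n = 12). HMGN3 stood clearly below the others, with HMGB3 above it in 24 of 24 oocytes (log2 ratio 2.62 ± 0.65, SD, n = 24).

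HMGB2, a box protein of proliferating cells and germ cells, was named by the paper for its difference between these same oocytes. HMGB2 was thus chosen by its measured RPM in both groups, and its difference is a description with no test. In injected oocytes HMGB2 was lowest at 395 RPM in oocyte 3, had a median of 586 RPM and was highest at 676 RPM in oocyte 9. In non-injected oocytes it was lowest at 346 RPM in oocyte 6, had a median of 448 RPM and was highest at 544 RPM in oocyte 7. The groups overlapped, but 9 of 12 injected oocytes lay above every non-injected one and 11 of 12 lay above the non-injected median. Of these 9, injected oocyte 8 (544.4 RPM) was above non-injected oocyte 7 (544.3 RPM) by less than the worth of 1 UMI. Means were 565 ± 75.6 RPM in injected, against 452 ± 61.5 RPM in non-injected oocytes (SD, n = 12 each), a ratio of 1.25 and a log2 fold change of 0.32 on the log2(RPM + 5) scale. The values rested on 82 to 222 UMIs per injected and 58 to 221 UMIs per non-injected oocyte.

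The paper's text does not name the other 3 genes, although all members were chosen with earlier results of these data known. For these 3 genes the fit over all genes was read. In this fit (limma on log2(RPM + 5), Benjamini-Hochberg adjustment over 7256 genes, with calls made below an adjusted p of 0.05 and beyond a fold of 1.2) 16 genes were called, which is 0.221% of the genes tested, 6 of them higher and 10 lower. After TMM rescaling 2 were higher and 10 lower. None of the 3 HMG genes was called by limma, 1 of them (HMGN3) had an unadjusted p under 0.05, as did 12.4% of all genes tested. On the recovered UMI counts edgeR called 0 of the 3, beside 0.0965% of all genes it tested. DESeq2 called 0 of the 2 to which it gave an adjusted p, with HMGN3 given none, beside 3.53% of all genes with one. On simulated data with these group sizes and depths the fit found 29.2% of genes changed by a fold of 1.5 and 78.1% of those changed by a fold of 2. The simulation gave all genes the same spread beyond counting, so these shares need not hold for the 3 HMG genes.

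HMGN3, a nucleosome-binding protein, had lower values in most injected oocytes without passing the test. In injected oocytes it was lowest at 10.7 RPM in oocyte 4, where it rested on 3 UMIs, had a median of 38.6 RPM and was highest at 58.0 RPM in oocyte 12. In non-injected oocytes it was lowest at 27.2 RPM in oocyte 9, had a median of 56.8 RPM and was highest at 110.5 RPM in oocyte 11. The groups overlapped, with 11 of 12 injected values under the non-injected median and 6 of 12 non-injected oocytes above every injected one. Means were 38.7 ± 11.9 RPM in injected, against 57.7 ± 23.6 RPM in non-injected oocytes (SD, n = 12 each). The log2 fold change was -0.50 (SE 0.21, 95% interval -0.93 to -0.06, adjusted p = 0.321 from limma). The unadjusted p of 0.025 was no longer under 0.05 when injected oocyte 4 (0.066), non-injected oocyte 8 (0.051) or non-injected oocyte 11 (0.059) was left out of the limma fit, and each of these intervals included 0. Its highest value was in the oocyte with the fewest UMIs, where it rested on 15 UMIs. Without that oocyte the non-injected mean was 52.9 ± 17.6 RPM (SD, n = 11) and the log2 fold change was -0.41 (adjusted p = 0.465 from limma). Without injected oocyte 4 the injected mean was 41.2 ± 8.39 RPM (SD, n = 11) and the log2 fold change was -0.37 (adjusted p = 0.413 from limma).

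HMGA1, an AT-hook protein of embryonic and dividing cells, differed between the groups by less than the spread within them. It ran from 303 RPM in oocyte 1 through a median of 477 RPM to 649.7 RPM in oocyte 12 of the injected group. In the non-injected group it ran from 275 RPM in oocyte 3 through a median of 425 RPM to 586 RPM in oocyte 11. The groups overlapped over nearly their whole ranges, and 8 of 12 injected oocytes lay above the non-injected median. Means were 467 ± 109 RPM in injected, against 417 ± 101 RPM in non-injected oocytes (SD, n = 12 each), with a log2 fold change of 0.16 (SE 0.14, 95% interval -0.11 to 0.44, adjusted p = 0.669 from limma).

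HMGB3, a box protein known from blood and embryonic stem cells in mouse, had nearly equal means in both groups. In injected oocytes it was lowest at 168 RPM in oocyte 8, had a median of 273 RPM and was highest at 408 RPM in oocyte 1. In non-injected oocytes it was lowest at 141 RPM in oocyte 10, had a median of 261 RPM and was highest at 523 RPM in oocyte 5. The injected values lay within the non-injected range, with 6 of 12 above the non-injected median and 3 of 12 non-injected oocytes above every injected one. Means were 284 ± 66.6 RPM in injected, against 286 ± 123 RPM in non-injected oocytes (SD, n = 12 each), with a log2 fold change of 0.07 (SE 0.18, 95% interval -0.29 to 0.42, adjusted p = 0.915 from limma). The sign of this difference was not fixed, since it was -0.01 without non-injected oocyte 10 and also below 0 by edgeR and DESeq2.

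**Figure D1:**
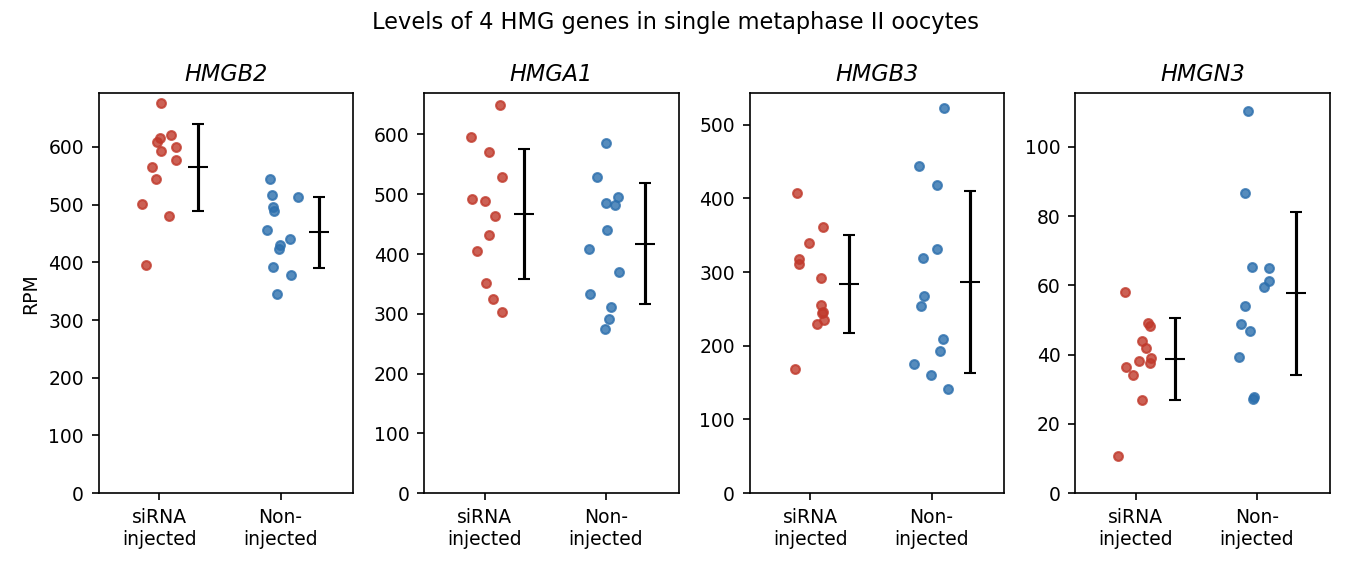
Level in RPM (y axis, from 0, a scale of its own in each panel) of HMGB2, HMGA1, HMGB3 and HMGN3 in siRNA injected (red, left) and non-injected (blue, right) oocytes, 1 point an oocyte, with the mean and SD of 12 oocytes beside the points. HMGB2, chosen for its difference, had 9 of 12 injected oocytes above every non-injected one, oocyte 8 by less than the worth of 1 UMI. HMGN3 had 11 of 12 injected values under the non-injected median, and the other genes overlapped widely.

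The genes differed in how far single oocytes lay apart. HMGB2 varied least of the 4, with a coefficient of variation (CV) of 13.4% in injected and 13.6% in non-injected oocytes, against 8.53% that UMI counting alone would give. Over all 24 oocytes its CV was 17.4%. The spread within the groups is part of the comparison by which HMGB2 was chosen, so its small CV is a description and no finding about the gene. Among the 1088 genes averaging 200 RPM or more the median CV over all 24 oocytes was 22.3%, and for all tested genes it was 40.0%. Over the same 24 oocytes the CV was 24.0% for HMGA1, 34.0% for HMGB3 and 42.9% for HMGN3. HMGA1 had a CV of 23.4% in injected and 24.3% in non-injected oocytes (9.14% from counting alone), and its highest value was 2.37 times its lowest.

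HMGB3 had a CV of 23.5% in injected and 43.0% in non-injected oocytes, against 11.6% from counting alone. The wider non-injected spread came with 3 oocytes above the injected maximum (oocytes 5, 8 and 11) and 4 below 200 RPM (oocytes 2, 4, 10 and 12), and without oocyte 11 it was 43.4%. A difference in spread between the groups was not tested. HMGN3 had a CV of 30.8% in injected and 40.9% in non-injected oocytes, against 30.4% in injected and 26.7% in non-injected oocytes from counting alone, so its injected spread was close to the counting error. It rested on a median of 10 UMIs per injected and 14 UMIs per non-injected oocyte. Without injected oocyte 4 its injected CV was 20.3%, and without oocyte 11 its non-injected CV was 33.2%. Correlations with depth were weak for all 4 genes, with a Spearman rho between RPM and UMIs per oocyte of 0.15 for HMGB2, 0.36 for HMGA1, -0.22 for HMGB3 and -0.13 for HMGN3 (n = 24).

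**Figure D2:**
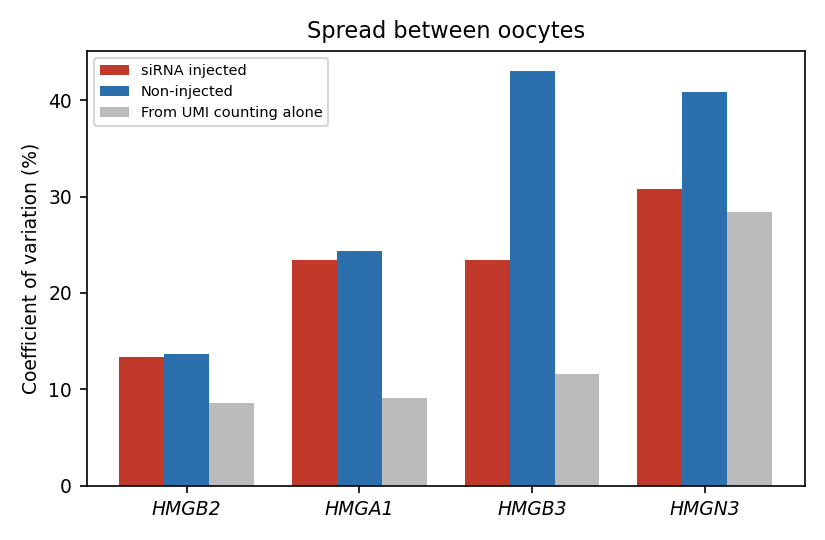
Coefficient of variation in percent (y axis, from 0) of the 4 HMG genes among 12 siRNA injected oocytes (red), among 12 non-injected oocytes (blue) and from UMI counting alone over all 24 oocytes (grey). HMGB2 had the smallest spread (13.4% injected, 13.6% non-injected), and HMGB3 had a wider one in non-injected (43.0%) than in injected oocytes (23.5%).

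Within a group, some pairs of HMG genes had a high rho from oocyte to oocyte, but no pair had one in both groups. HMGB2 and HMGB3, which share the same box architecture, had a Spearman rho of 0.81 among 12 injected and 0.29 among 12 non-injected oocytes, and 0.47 over all 24 after each group's mean was subtracted. HMGB2 exceeded HMGB3 in 12 of 12 injected oocytes, by a median ratio of 1.99. In non-injected oocytes it did so in 10 of 12, by a median ratio of 1.80. HMGB3 exceeded HMGB2 in non-injected oocytes 5 and 11. Since HMGB2 was chosen for its group difference, this contrast of the groups is a description as well.

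HMGB3 and HMGN3 had the reverse picture. Their rho was -0.01 among injected and 0.84 among non-injected oocytes (0.55 over all 24, group means subtracted), and it was 0.81 without non-injected oocyte 11. HMGA1 and HMGN3 had a rho of 0.74 among injected and -0.03 among non-injected oocytes (0.29 over all 24), and 0.76 without injected oocyte 4. The other pairs, HMGB2 with HMGA1, HMGB2 with HMGN3 and HMGA1 with HMGB3, had values of -0.18, 0.15 and -0.17 over all 24 oocytes. Among injected oocytes they had a rho of -0.18, -0.14 and -0.15, and among non-injected oocytes of -0.15, 0.31 and -0.09. The pairs given first, and drawn below, have the highest values within a group. Their high values follow in part from that choice. These correlations are descriptions. Both genes of a pair share the library and its depth, and each RPM is a share of the same total. HMGN3 rests on few UMIs, and its injected CV of 30.8% was close to the 30.4% from counting alone. Whether its injected rho with HMGA1 reflects mRNA amounts can thus not be told. Differences between the groups were not tested.

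**Figure D3:**
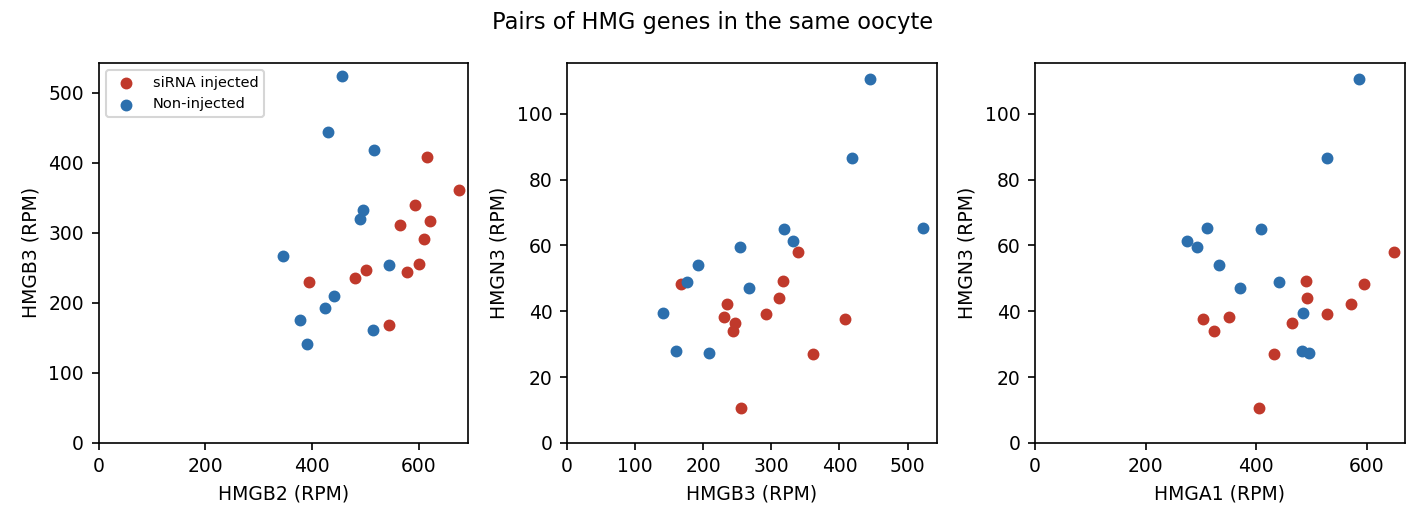
Level in RPM of HMGB3 against HMGB2 (left), HMGN3 against HMGB3 (middle) and HMGN3 against HMGA1 (right), 1 point an oocyte, 12 siRNA injected (red) and 12 non-injected (blue). HMGB2 and HMGB3 had a rho of 0.81 in injected and 0.29 in non-injected oocytes. HMGB3 and HMGN3 had a rho of -0.01 in injected and 0.84 in non-injected oocytes. HMGA1 and HMGN3 had a rho of 0.74 in injected and -0.03 in non-injected oocytes. The pairs drawn have the highest values within a group, and the injected spread of HMGN3 was close to the counting error.

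The genes whose pattern over the 24 oocytes was most like that of each HMG gene were taken by Spearman rho, with group means subtracted, among 6061 genes with a symbol of their own. For HMGB2 these were F3, the coagulation tissue factor (rho 0.73), DLG5, a scaffold protein of cell polarity (0.71), CDC25B, the phosphatase that activates the cyclin-dependent kinase of meiotic resumption (0.70), CHSY1, a chondroitin synthase (0.70), and PALB2, a protein of recombination repair (0.68). The median absolute rho with all 6061 genes was 0.18 for HMGB2, 0.24 for HMGA1, 0.20 for HMGB3 and 0.13 for HMGN3. The listed genes were picked as the highest of 6061, so high values follow in part from the choice. Whether any listed gene varies with its HMG gene was not tested. CDC25B was also first by Pearson r (0.74), at 137 ± 36.1 RPM in injected, against 147 ± 45.2 RPM in non-injected oocytes (SD, n = 12 each). For HMGA1 they were TINF2, a telomere protein (0.79), and CCNG1, a cyclin (0.78), for HMGB3 HEATR3 (0.70) and DBX1, a homeobox gene (0.67), and for HMGN3 VSTM2A (0.66) and CEP250, a centrosome protein (0.65). HEATR3 and VSTM2A had means of 17.1 and 10.1 RPM, so they rested on few UMIs. With Pearson r in place of Spearman rho, 2 of the 11 genes stayed on their list (CDC25B and HEATR3).

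Other genes of the HMG superfamily were read from a list of 34, of which 24 had a row and 19 were tested. None was called in either direction by limma, by edgeR or by DESeq2, which gave 13 of them an adjusted p, and 3 of the 19 had an unadjusted p under 0.05 from limma, beside 12.4% of all genes tested. The limma log2 fold change was above 0 in 6 and below 0 in 13. The median was -0.07, against 0.02 over all 7256 genes. Highest were HMGXB4, a box protein (376 ± 73.3 RPM in injected, against 426 ± 107 RPM in non-injected oocytes, SD, n = 12 each), and SMARCE1, a SWI/SNF remodelling subunit (322 ± 49.8 RPM in injected, 283 ± 65.6 RPM in non-injected oocytes). Both had means between those of HMGB3 and HMGA1.

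The smallest p in this list belonged to UBTF and HMGXB3. UBTF, the box factor of ribosomal RNA gene transcription, was at 23.0 ± 10.9 RPM in injected, against 12.3 ± 7.53 RPM in non-injected oocytes (limma log2 fold change 0.74, SE 0.27, adjusted p = 0.211, with 11 of 12 above the non-injected median). HMGXB3 was at 135 ± 29.0 RPM in injected, against 102 ± 27.5 RPM in non-injected oocytes (limma log2 fold change 0.40, SE 0.14, adjusted p = 0.217, above the median in 12 of 12). The genes with a row that fell under the mean of 10 RPM were TFAM, TOX, TOX2, SOX6 and SOX13.

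Of 10 listed linker histones, with which HMG proteins compete for nucleosomes, 7 had a row, 6 were tested, none was called by limma or edgeR, and 1, HIST1H1C, was called as higher by DESeq2, which called 3.53% of all genes to which it gave an adjusted p. The median log2 fold change of the 6 was 0.47, against 0.02 over all genes, with 5 positive and 1 negative. By limma 4 of the 6 had an unadjusted p under 0.05, beside 12.4% of all genes tested. H1FOO, the oocyte linker histone, was at 920.2 ± 208 RPM in injected, against 714 ± 125 RPM in non-injected oocytes (limma log2 fold change 0.35, adjusted p = 0.211, 9 of 12 above the median). HIST1H1A was at 831 ± 327 RPM in injected, against 581 ± 331 RPM in non-injected oocytes (limma log2 fold change 0.59, adjusted p = 0.202). HIST1H1C (153 ± 38.0 RPM in injected, 95.7 ± 36.1 RPM in non-injected oocytes) differed by 0.71 on the log2 scale (adjusted p = 0.0751 from limma, 0.124 from edgeR and 0.0257 from DESeq2). HIST1H1E (144 ± 38.8 RPM in injected, 97.3 ± 41.9 RPM in non-injected oocytes) differed by 0.63 (adjusted p = 0.179 from limma). The H1 genes are near-identical copies of each other in part, so reads may be split between them. Only RNA primed at a poly(A) tail was counted, so any H1 mRNA without a tail is not in these values.

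The SET complex, in which HMGB2 takes part in DNA damage responses of somatic cells, was measured through 3 of 5 listed partners, and 2 were tested with none called by limma or edgeR, nor by DESeq2, which gave an adjusted p to 1 of them. By limma 1 had an unadjusted p under 0.05 (12.4% of all genes tested did), and the median log2 fold change was -0.01. SET, the histone chaperone that gives the complex its name, was at 73.5 ± 19.3 RPM in injected, against 95.5 ± 30.3 RPM in non-injected oocytes (limma log2 fold change -0.35, SE 0.17, adjusted p = 0.395, below the median in 8 of 12). APEX1, a base excision repair nuclease, was at 46.6 ± 16.7 RPM in injected, against 36.7 ± 14.8 RPM in non-injected oocytes (limma log2 fold change 0.32, adjusted p = 0.57). TREX1, an exonuclease, was above 0 in 8 of 24 oocytes.

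Enzymes and export factors that act on HMG proteins were listed as 14 genes, of which 13 had a row and 12 were tested. None was called by limma or edgeR, nor by DESeq2 among the 9 to which it gave an adjusted p. By limma 1 of the 12 had an unadjusted p under 0.05, beside 12.4% of all genes tested, with 4 positive and 8 negative log2 fold changes and a median of -0.08. The highest were CREBBP, an acetyltransferase (403 ± 81.3 RPM in injected, against 484 ± 135 RPM in non-injected oocytes), and PARP1, which ADP-ribosylates HMGB proteins (403 ± 91.9 RPM in injected, 377 ± 63.2 RPM in non-injected oocytes). SIRT1, a deacetylase, was at 68.5 ± 20.7 RPM in injected, against 95.7 ± 33.4 RPM in non-injected oocytes (limma log2 fold change -0.44, SE 0.18, adjusted p = 0.301, below the median in 8 of 12). XPO1, the exportin that carries HMGB1 out of the nucleus, was lower in 10 of 12 injected oocytes than the non-injected median (limma log2 fold change -0.31, adjusted p = 0.41).

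Of 8 listed receptors and partners of HMGB1 outside the cell, 3 had a row and 2 were tested, with none called by limma or edgeR, nor by DESeq2, which gave an adjusted p to 1 of them. AGER, the receptor RAGE, was above 0 in 2 of 24 oocytes. CXCR4, a chemokine receptor (66.9 ± 36.7 RPM in injected, against 82.1 ± 33.0 RPM in non-injected oocytes), differed by -0.36 on the log2 scale (adjusted p = 0.594 from limma), and TLR2, a Toll-like receptor (44.7 ± 17.2 RPM in injected, 46.4 ± 19.9 RPM in non-injected oocytes), by -0.04 (adjusted p = 0.967 from limma). By limma neither TLR2 nor CXCR4 had an unadjusted p under 0.05, and their median log2 fold change was -0.20.

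**Figure D4:**
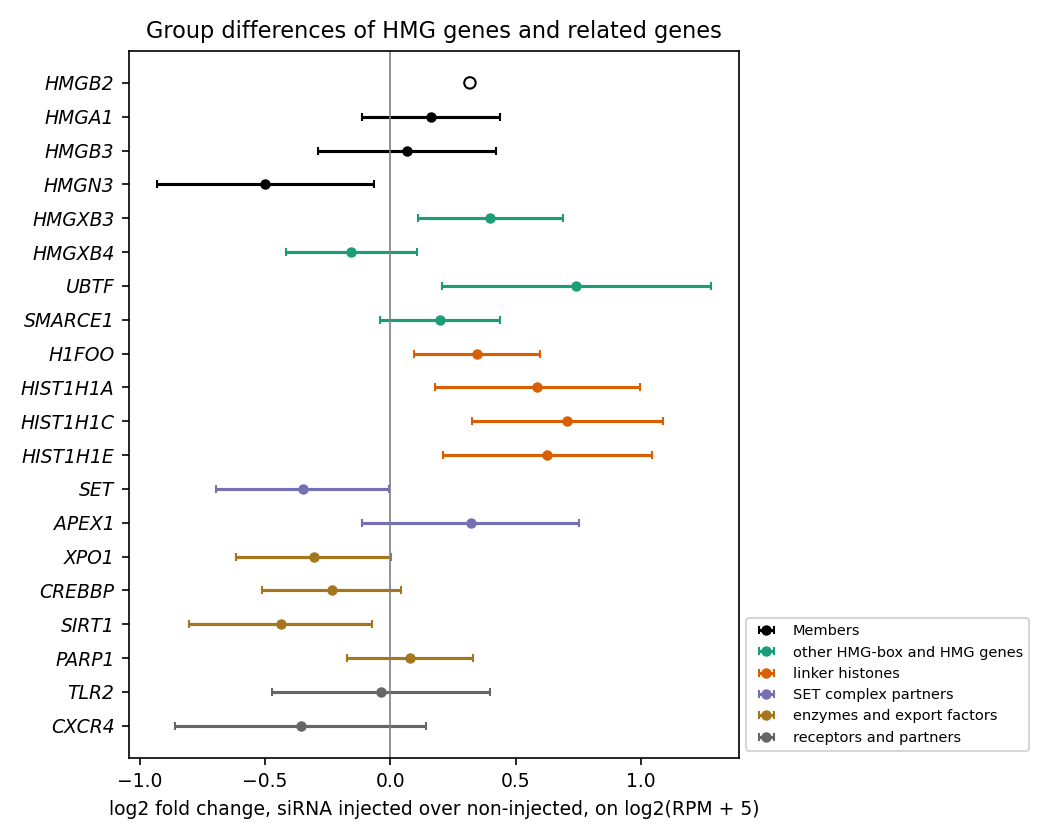
Log2 fold change of siRNA injected over non-injected oocytes on log2(RPM + 5) (x axis) for the 4 HMG genes (black) and the named genes of 5 related lists (colours), as points with 95% intervals from limma. HMGB2 is an open point with no interval because it was chosen for this difference, and HMGN3 lies at -0.50. The 4 linker histones drawn lie between 0.35 and 0.71, while H1F0 (-0.20) and HIST1H1D (0.27) were tested but are not drawn. No tested gene shown was called by limma after adjustment over 7256 genes.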

How the data were processed

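Single oocytes were sequenced by CEL-seq2. Reads were mapped by the authors to a cDNA library and collapsed by gene and UMI, and the deposited values are RPM. The submitters' processing notes name build UMD 3.1. No source used here gives the aligner. No reference of that build was used, so no coordinates or sequences are given. The deposited RPM values are corrected for repeated draws of a UMI. Undoing this (a scan gave a capacity of 4048) gave whole UMI counts for 100% of the values (within 0.001). The table had 24 value columns, all used, and 3276 rows with an ID alone. Genes were matched by symbol, so a listed gene said to have no row may still be among these.

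limma 3.58.1 (trend) in R 4.3.3 was run on log2(RPM + 5) for 7256 genes that averaged 10 RPM or more. This scale understates changes of low genes. Alternatives were edgeR 4.0.16 and DESeq2 1.42.0 on recovered counts, other pseudocounts, filters and scalings, a depth covariate, a replicate block and leaving out each oocyte. edgeR with its own filter, and the values without non-injected oocyte 11 or injected oocyte 4, were added after seeing the data. Python 3.11.15 with scipy 1.17.1 gave the correlations.

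The 7 members and all gene lists were chosen with earlier results of these data known. Named genes are the members, the genes most like them in pattern (5 for HMGB2, 2 for each other), and in each list the 2 highest genes and the 2 of smallest p. The lists were other HMG genes, linker histones, SET complex partners, enzymes and export factors, and receptors and partners. Other genes, such as AGER and TREX1, were named after their values were seen. A simulated comparison of injected with non-injected oocytes over 7119 genes tested the fit. It found 19 of 65 genes at a fold of 1.5, 50 of 64 at 2 and 57 of 61 at 3. The spread beyond counting was set alike for all genes, and more genes were changed than were called in the data. These shares need not hold for a given gene.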

Additional observations from a re-analysis of the deposited data

How the results depend on the processing

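No tested HMG gene was called under the 34 alternatives run, of which DESeq2 gave an adjusted p to 2 of the 3 and none to HMGN3 (lowest and highest count 0 and 0 of 3 without 1 oocyte at a time). The log2 fold change of HMGA1 ranged from 0.11 to 0.22 and that of HMGN3 from -0.58 to -0.37 without 1 oocyte at a time, and HMGB2 ran from 0.28 to 0.36. HMGB3 ranged from -0.013 to 0.16 and was -0.025 by edgeR, -0.00041 by edgeR with its own filter and -0.010 by DESeq2. The order by level was the same with medians and after TMM rescaling.

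The number of genes called over all genes was 16. It was 9 with a pseudocount of 1 RPM, 0 with no filter (1332 at an unadjusted p under 0.05), 52 with a filter at 30 RPM and 31 with depth as a covariate. It was 7 by edgeR, 50 by edgeR with its own filter and 119 by DESeq2, and it ranged from 0 to 37 without 1 oocyte at a time. It was 25 without injected oocyte 3 and 37 without injected oocyte 4, and 7 or fewer without injected oocytes 1, 6, 7, 8, 9, 10 or 12. It was 10 without non-injected oocyte 3 or 12, 5 without 1, 4 without 6 and 0 without 8, 10 or 11 (889, 887 and 828 genes at an unadjusted p under 0.05). The causes were not tested. By Pearson r, 2 of 11 pattern genes were kept.

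Same-numbered oocytes of the groups did not pair (r of their deviations -0.12 to 0.17, over 0.1 in 2 of 12 pairs, and 1 injected oocyte closest to its own number). With the replicate number as a block 11 genes were called over all genes and 0 of the 3 HMG genes. The alternative of summing rows of a shared member symbol was not run, since each measured symbol had 1 row. HMGN3, at 3 to 38 UMIs an oocyte, is the gene most limited by depth.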
